A study of Mus musculus with 3 samples.

Results

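The genes described here are the variable (V) genes of the T cell receptor in immune cells of the mouse kidney. They were taken as the gene columns whose name begins with Trav, Trbv, Trgv or Trdv and that held a count above 0 in at least 1 cell, so the members were selected on the measured counts themselves. Of 170 such columns among 32886 gene columns, 114 had a count, namely 84 of 128 Trav, 24 of 35 Trbv, 1 of 1 Trgv and 5 of 6 Trdv genes, and 56 had none in any cell. The cells were CD45+ immune cells sorted from untreated wild-type male C57BL/6J mice aged 10 weeks, whose kidneys were perfused and cut into cortex, OM (outer medulla) and IM (inner medulla). 3 datasets (Aachen, Bonn and Hamburg) each covered the 3 compartments, which gave 9 libraries and 20266 cells in 23 clusters named by the authors. The number of mice behind a library is not given in the sources used here. The p-values therefore measure how far compartment differences vary between datasets, which may be in part technical.

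A T cell builds its receptor by joining V, (D) and J segments to a constant region, and the V segment encodes the framework and the first 2 antigen-binding loops of each chain. Alpha-beta T cells carry a Trav and a Trbv segment, whereas gamma-delta T cells carry a gamma and a delta segment. Some innate-like T cells use near-invariant combinations, and natural killer (NK) cells and group 2 innate lymphoid cells (ILC2) do not need a rearranged receptor, although unrearranged segments can be transcribed. The V count alone gives neither the joined sequence nor the clone of a cell.

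All 114 genes were at 0 in each Aachen library, although 1539 of its cells lay in the clusters T_cell_1 to T_cell_4. This was not particular to V genes: of 268 columns of receptor V, D, J and constant genes 147 had a count somewhere and 0 had one in Aachen, and likewise 0 of 392 immunoglobulin columns, 248 of which had a count elsewhere. Median counts of unique molecules (UMIs) per T cell ranged from 773 to 1107 in Aachen and from 3151 to 3525 in the other libraries, and Cd3e, a subunit of the receptor complex, was found in 32.3 to 43.3% and in 92.4 to 96.2% of T cells, respectively. In all, 613 of the 10093 genes found in 200 or more Bonn and Hamburg cells were at 0 in Aachen, and the cause was not tested. All usage below therefore rests on the 6 Bonn and Hamburg libraries, with 1605 and 2092 T cells, of which 118 were in the Bonn OM library, and the T cells of a library held 438108 to 4478890 UMIs. The V genes held 16075 UMIs in Bonn and 18394 in Hamburg. Of the 114 genes, 97 were detected in both datasets, 17 only in Hamburg and 0 only in Bonn. The matching split over all genes was not computed. The 13 genes found in 2 to 9 cells and the 7 found in 1 cell are counted here but carry no comparison, while 68 genes were found in 10 to 99 cells and 26 in 100 or more.

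The Trav and Trdv genes lie on chromosome 14, the Trbv genes on chromosome 6 and Trgv2 on chromosome 13 (GRCm38, annotated by GENCODE M21). Each V gene printed here has 2 exons and was annotated as TR_V_gene unless stated otherwise. The sequences that the results turn on are shown first, as the last coding bases of the germline segment, with the last in-frame cysteine codon in capitals. A cysteine at this place starts the third, most variable loop in the joined chain. Trdv4 (chr14:54074905-54075515, + strand) and Trgv2 (chr13:19336573-19337167, − strand) are shown because they separated clusters of T cells, Trav7-4 (chr14:53461099-53461738, + strand) and Trbv4 (chr6:41059394-41059886, + strand) because they were found together, and Trbv29 (chr6:41271394-41271881, + strand) because it passed a compartment test. Trbv13-2 (chr6:41121396-41121832, + strand) was the most used beta segment, and Trbv12-2 (chr6:41118851-41119364, + strand) is its upstream neighbor.
Trdv4: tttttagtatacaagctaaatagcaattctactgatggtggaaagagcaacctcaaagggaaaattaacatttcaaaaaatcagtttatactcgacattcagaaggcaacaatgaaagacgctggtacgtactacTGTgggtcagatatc
Trgv2: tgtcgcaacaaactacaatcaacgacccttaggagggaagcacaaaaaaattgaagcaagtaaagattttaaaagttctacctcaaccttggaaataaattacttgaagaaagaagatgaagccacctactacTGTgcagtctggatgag
Trav7-4: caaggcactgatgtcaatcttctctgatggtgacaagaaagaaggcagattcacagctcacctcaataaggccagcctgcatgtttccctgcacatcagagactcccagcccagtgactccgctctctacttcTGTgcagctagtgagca
Trbv4: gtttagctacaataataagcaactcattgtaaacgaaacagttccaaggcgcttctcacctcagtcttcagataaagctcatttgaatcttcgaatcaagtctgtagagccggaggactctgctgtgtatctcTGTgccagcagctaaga
Trbv29: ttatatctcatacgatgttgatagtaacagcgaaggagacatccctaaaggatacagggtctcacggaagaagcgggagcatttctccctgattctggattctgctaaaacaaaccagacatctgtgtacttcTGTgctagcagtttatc
Trbv13-2: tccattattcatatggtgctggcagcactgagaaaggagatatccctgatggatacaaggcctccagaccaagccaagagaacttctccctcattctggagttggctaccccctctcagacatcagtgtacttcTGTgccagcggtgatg
Trbv12-2: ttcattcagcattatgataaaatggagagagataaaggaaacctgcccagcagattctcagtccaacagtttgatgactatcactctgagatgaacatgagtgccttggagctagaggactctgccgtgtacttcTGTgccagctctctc
Trbv13-2 and Trbv12-2 were identical at 53.9% of aligned positions, with no shared run above 18 bases, so that reads of one do not stand for the other. The Trdv4 gene overlaps Gm30275 on the opposite strand, where reads of the overlap can be told apart only by their strand. Trbv4 overlaps 5830405F06Rik on the same strand, so that their reads may be hard to tell apart.

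The alpha locus holds near-copies of whole blocks of V genes, named with a d or an n. Of 55 columns without such a letter 47 were detected, against 19 of 39 d copies and 18 of 34 n copies, and they held 77.6%, 9.15% and 13.2% of the Trav UMIs. Among 38 Trav columns with no 90-base stretch that was unique among the V gene transcripts, 6 had a count, whereas 78 of the 90 columns with at least 1 such stretch had one. These 6 were detected only in Hamburg, in 1 or 2 cells each. How reads that match several copies were counted is not given in the sources used here, and a 0 in a copy does not show that it was silent. Trav11 (chr14:53519303-53519859, + strand), the alpha segment of invariant NKT cells, is an example. It differed from Trav11d (chr14:52824357-52824912, + strand) at 1 aligned position and shared a run of 342 bases with it, and Trav11d had no count in any cell. Trav11n (chr14:53135122-53135678, + strand), annotated as a pseudogene, differed at 8 positions and was found in 3 cells. The 3 segments are shown over their last 90 coding bases.
Trav11: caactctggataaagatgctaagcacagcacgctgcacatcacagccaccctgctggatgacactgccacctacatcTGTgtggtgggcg
Trav11d: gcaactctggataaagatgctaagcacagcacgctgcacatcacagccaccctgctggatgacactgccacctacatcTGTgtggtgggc
Trav11n: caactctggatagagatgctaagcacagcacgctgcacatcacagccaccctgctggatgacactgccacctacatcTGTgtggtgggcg
Values of a single Trav gene are therefore less certain than those of Trbv genes, whose detected members had a median of 100% unique stretches against 76.9% for Trav.

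At least 1 V gene was detected in 97.4% of T cells in Bonn and 97.3% in Hamburg, which left 42 and 56 T cells without any. Trbv genes were found in 93.3, 90.7 and 88.7% of T cells of Bonn cortex, OM and IM and in 89.0, 87.1 and 91.7% of those of Hamburg. Trav genes were found in 59.5, 39.0 and 51.9% in Bonn and in 61.4, 66.2 and 64.3% in Hamburg, and the Bonn OM library stood lowest. Trgv2, the only Trgv member, was found in 19.3, 20.3 and 9.97% in Bonn and in 11.5, 6.80 and 8.14% in Hamburg. Trdv genes were found in 3.93, 0.847 and 5.15% in Bonn and in 3.91, 5.70 and 3.91% in Hamburg. Both a Trav and a Trbv gene were detected in 860 T cells (53.6%) in Bonn and 1204 (57.6%) in Hamburg. These are shares of cells with at least 1 UMI and depend on depth: thinned to 500 UMIs per cell, the shares over both datasets were 19.3% for Trav and 50.6% for Trbv, against 60.0% and 90.8% unthinned.

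Trbv genes led in T_cell_1 to T_cell_3, Trdv genes led in NK cells and ILC2, and T_cell_4 held both, with Trbv the more frequent. In T_cell_1, T_cell_2 and T_cell_3, Trbv genes were found in 88.3 to 94.5% of cells of either dataset and Trdv genes in 1.59 to 6.17%. In T_cell_4, Trbv genes were found in 63.4% (26 of 41 cells, exact 95% binomial interval 46.9 to 77.9%) in Bonn and 62.2% (46 of 74 cells, 50.1 to 73.2%) in Hamburg, and Trdv genes in 29.3% and 36.5%. In NK_cell_1, NK_cell_2 and ILC2 the order was inverse, with Trbv genes in 4.21 to 10.7% and Trdv genes in 32.5 to 48.2% of cells. In B_cell_1, which should lack both, Trbv genes were found in 1.05% of 1624 cells in Bonn and 5.20% of 1134 in Hamburg, and Trdv genes in 0.0616% and 0.265%, at median depths of 2747 and 2548 UMIs against 3047 to 4617 in the NK, ILC2 and T_cell_4 clusters. The Trbv shares of NK cells and ILC2 thus lay near or above that background, whereas their Trdv shares lay far above it. The clusters were formed from the same genes, so these shares describe the clusters and were not tested. Of the defining markers, Cd8a was in 78.3 and 68.0% of T_cell_2 cells, the naive marker Ccr7 in 83.1 and 85.5% of T_cell_3, Gata3 in 87.0 and 81.0% of ILC2 and Ncr1 in 88.0 to 97.4% of both NK clusters. The NK regulator Eomes was in 58.4 and 67.0% of NK_cell_1 but in 2.82 and 7.34% of NK_cell_2, and Gzma likewise in 98.3 to 98.9% and 7.04 to 11.6%, so NK_cell_2 lacks part of the NK profile.

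**Figure D1:**
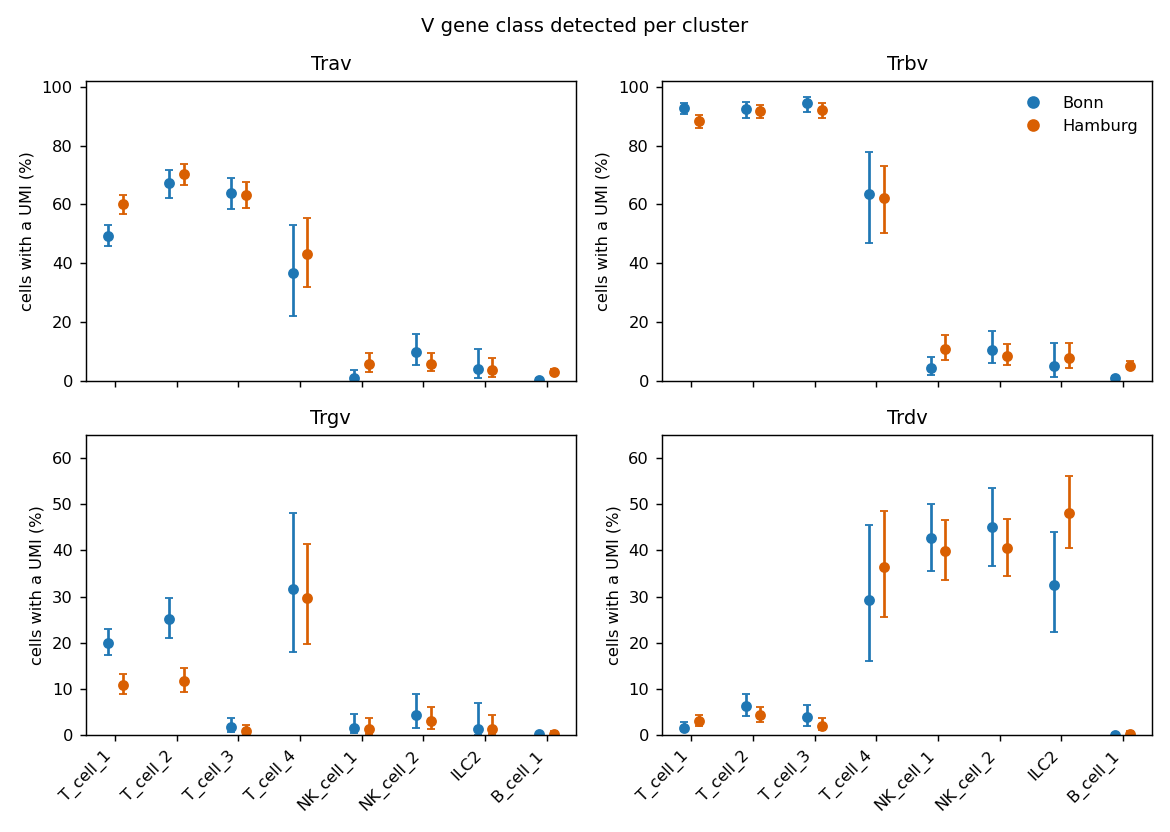
Share of cells (%) with a UMI of a Trav, Trbv, Trgv or Trdv gene in 8 clusters, Bonn in blue and Hamburg in orange, with bars for the exact 95% binomial interval, which covers counting error only. Trav and Trbv were high in T_cell_1 to T_cell_3, and Trdv was high in T_cell_4, NK cells and ILC2, where it lay between 29.3 and 48.2%.

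Trdv4, which encodes the V segment of the invariant delta chain of the fetal-type gamma-delta T cells, carried most of this pattern. It was found in 26.8% of T_cell_4 cells in Bonn (11 of 41, exact interval 14.2 to 42.9%) and 29.7% in Hamburg (22 of 74, 19.7 to 41.5%), but in 0.204 to 0.787% of the cells of T_cell_1 to T_cell_3. It was also found in 23.2 and 30.9% of NK_cell_1, in 33.1 and 33.2% of NK_cell_2 and in 31.2 and 45.8% of ILC2. The shares of cells with a UMI thus overlapped between T_cell_4 and the NK and ILC2 clusters, whereas the median number of UMIs per positive cell was apart, although single cells overlapped. The positive T_cell_4 cells held a median of 17 UMIs in Bonn (up to 31) and 12 in Hamburg (up to 38), and 11 of 11 and 18 of 22 of them held 5 or more, with a lowest value of 1.97 in Hamburg. The highest NK and ILC2 cells held 18 UMIs (Bonn NK_cell_1) and 11 (Hamburg ILC2). Positive NK and ILC2 cells held medians of 0.996 to 1.99 UMIs, and cells with 5 or more made up between 0 of 24 (Bonn ILC2) and 13% (10 of 77, Hamburg ILC2) of them. Thinned to 500 UMIs per cell, Trdv4 was found in 22.0 and 17.6% of T_cell_4 cells, in 3.68 to 7.04% of NK cells, and in 3.90 and 15.5% of ILC2, so that the Hamburg ILC2 stayed closest to T_cell_4.

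Cells of T_cell_4 with Trdv4 also carried the matching gamma segment and mostly lacked a beta segment. Tcrg-V6, the gamma segment that pairs with this delta chain, was found in 10 of 11 Trdv4-positive and 0 of 30 other T_cell_4 cells in Bonn, and in 20 of 22 and 2 of 52 in Hamburg. The constant gene Trdc was found in 72.7% of Trdv4-positive cells of either dataset, against 6.67 and 11.5% of the other T_cell_4 cells. A Trbv gene was found in 0 of 11 and 2 of 22 Trdv4-positive cells, against 26 of 30 and 44 of 52 of the others. In the NK and ILC2 clusters, by contrast, Tcrg-V6 was found in at most 3 Trdv4-positive cells of any cluster and dataset, and Trdc was no more frequent with Trdv4 than without it in NK cells (9.09 against 11.6% in Bonn NK_cell_1 and 11.1 against 13% in Hamburg). In Hamburg ILC2 Trdc was found in 4 of 77 Trdv4-positive cells (5.19%) and 0 of 91 others, and in Bonn ILC2 in 0 of 24 and 0 of 53. Over the 51 T cells with Trdv4, the genes most like it in detection were Cd163l1 (62.7% against 0.329% of the 3646 other T cells), a scavenger receptor of IL-17-producing gamma-delta T cells, Tcrg-V6 (62.7% against 0.357%), Tns4 (21.6% against 0.192%), Ablim3 (23.5% against 0.274%) and Kcnk1 (39.2% against 0.631%). Likeness is the ratio of these shares, over cells that share libraries and depth, and it was not tested. Only genes found in at least 10 of the positive cells were ranked, so rarer genes could not enter under this floor.

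**Figure D2:**
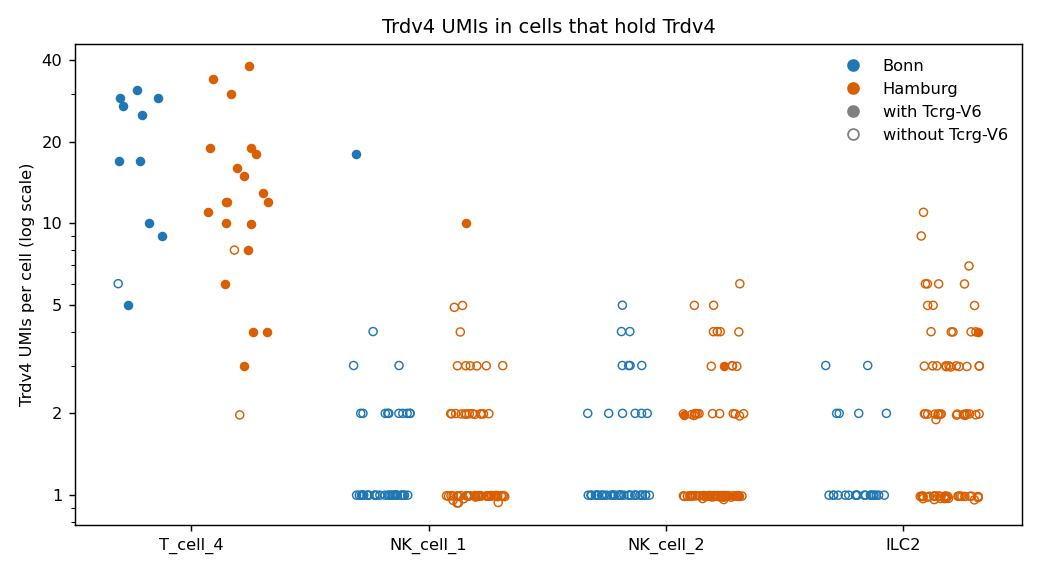
Trdv4 UMIs per cell (log scale) in the cells with Trdv4 of T_cell_4, NK_cell_1, NK_cell_2 and ILC2, 1 point per cell, Bonn in blue and Hamburg in orange, filled where Tcrg-V6 was also detected. T_cell_4 cells sit at medians of 17 and 12 UMIs and are mostly filled, whereas NK and ILC2 cells sit at medians of 0.996 to 1.99 UMIs and are mostly open, with single cells up to 18.

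Within T_cell_4, the share of cells with Trdv4 differed between libraries. It was 6 of 23 cells in Bonn cortex, 1 of 2 in OM and 4 of 16 in IM, and 9 of 28, 12 of 27 and 1 of 19 in Hamburg cortex, OM and IM. Hamburg OM was highest and Hamburg IM lowest among libraries with more than 2 cells, but Bonn IM was not low. In ILC2, Trdv4 was found in 19 of 42, 0 of 12 and 5 of 23 cells in Bonn cortex, OM and IM and in 35 of 58, 20 of 58 and 22 of 52 in Hamburg, so that cortex had the highest share in both datasets. No fit across libraries was made within these clusters, whose smallest libraries held 2 and 12 cells.

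The other delta segments showed different distributions. Trdv2-2 was found in 24.7 and 13.3% of NK_cell_1 and 14.1 and 9.65% of NK_cell_2 in Bonn and Hamburg, but in 3.90 and 2.98% of ILC2 and 0.112 to 5.41% of the T cell clusters. In NK_cell_1, 10 of 44 Trdv4-positive cells in Bonn and 11 of 72 in Hamburg also held Trdv2-2, against 25.3 and 12.4% of the cells without Trdv4. Trdv2-2 and Trdv2-1, with 57.1 and 56.9% unique 90-base stretches, overlap Gm43647 on the opposite strand. Trdv2-1 was detected in Hamburg but not in Bonn, and its 7 T cells were all of T_cell_1. Trdv1 was found in 12 and 17 T cells, and Trdv5, which overlaps Trdc on the opposite strand, in 5 and 14. Of the gamma constant genes, Tcrg-C4 was found in 35.2 and 29.3% of NK_cell_2 and 29.9 and 14.9% of ILC2 but in 0.526 and 2.58% of NK_cell_1, and Trbc2 was found in 14.7 to 36.3% of the NK and ILC2 clusters, where Trbv genes were at 4.21 to 10.7%.

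Most T cells with Trgv2 also held a beta segment, as did most T cells without it. Trgv2 was found in 20 and 10.9% of T_cell_1, 25.2 and 11.7% of T_cell_2 and 31.7 and 29.7% of T_cell_4 in Bonn and Hamburg. In the naive-like T_cell_3 it was found in 1.75 and 0.818%. Bonn values were thus higher than Hamburg values in T_cell_1 and T_cell_2. Median depths in T_cell_1 were 3057 and 3094 UMIs, and the cause of the difference was not tested. Of the Trgv2-positive T cells, 88.4% in Bonn and 84.8% in Hamburg held a Trbv gene, against 93.1 and 89.9% of the others. They also held gamma constant genes: Tcrg-C2 was found in 38.4 and 26.3% of them, against 1.89 and 1.74% of the other T cells, and Tcrg-C4 in 35.9 and 26.8%, against 2.95 and 3.22%. Trdc was found in 12.3 and 13.6% of them, against 0.908 and 2.69%. Within T_cell_4, a Trbv gene was found in 46.2 and 63.6% of the 13 and 22 Trgv2-positive cells, against 71.4 and 61.5% of the others. There Trdc was found in 53.8 and 40.9% of the Trgv2-positive cells, against 10.7 and 25%. The gamma segments that the table names Tcrg-V are not members by name but showed a like order over T cell clusters, with any of them in 14.0 and 10.6% of T_cell_1, 1.46 and 0.613% of T_cell_3 and 46.3 and 47.3% of T_cell_4. Of these, Tcrg-V4 was found in 17.1 and 16.2% of T_cell_4 and Tcrg-V1 in 10.6 and 3.86% of NK_cell_2, while Tcrg-V3, Tcrg-V5 and Tcrg-V7 were at most at 9.46% in any of these clusters.

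Usage of a beta segment is given as the share of Trbv-positive T cells that held a UMI of it. Trbv13-2, a segment often found in invariant NKT cells, led with 29.9, 27.1 and 19.8% in Bonn cortex, OM and IM and 28.0, 21.7 and 22.0% in Hamburg, and cortex was highest in both datasets. Trbv12-2 followed with 9.32% in Bonn and 13.8% in Hamburg, then Trbv3 (11.5 and 9.47%), Trbv1 (9.79 and 7.22%), Trbv29 (7.83 and 8.40%) and Trbv19 (6.41 and 8.61%). Trbv13-1 (7.97 and 6.68%), Trbv13-3 (5.33 and 7.01%), Trbv4 (4.19 and 8.13%) and Trbv16 (5.54 and 6.10%) completed the 10 most used, and 9 of the 10 most used segments were shared between the datasets. Neighbors in this order from Trbv12-2 down were not separated by the spread between libraries: the library ranges of Trbv12-2 (8.69 to 15.2%), Trbv3 (7.75 to 12.6%), Trbv1 (6.66 to 11.2%) and Trbv29 (3.74 to 9.92%) overlapped. Only Trbv13-2 had a lowest library (19.8%) above the highest library of every other segment (15.2%). The effective number of segments, the exponential of the entropy of usage, was 16.3 in Bonn and 16.8 in Hamburg.

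**Figure D3:**
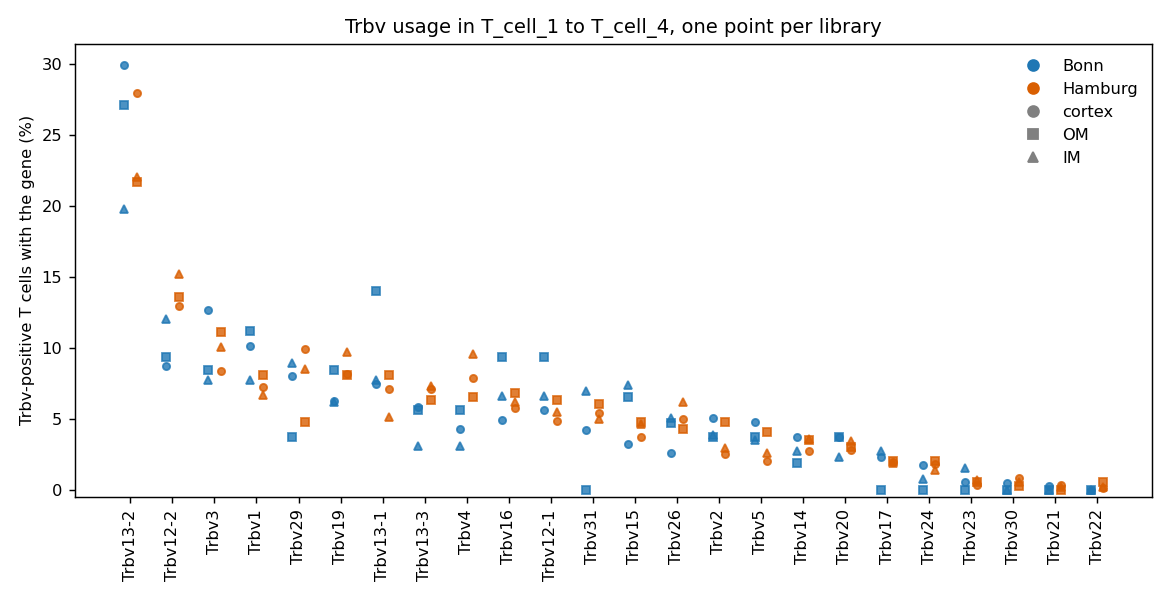
Usage of each Trbv gene as a share (%) of Trbv-positive T cells, 1 point per library, Bonn in blue and Hamburg in orange, with circles for cortex, squares for OM and triangles for IM. Trbv13-2 sits between 19.8 and 29.9%, above all other segments, and the OM squares of Trbv29 (3.74 and 4.79%) lie below its other points.

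Clusters differed in their shares of some much-used beta segments. Trbv13-2 was found in 35.2 and 28.2% of T_cell_1 cells in Bonn and Hamburg, against 16.8 and 16.6% of T_cell_2 and 14.9 and 19.4% of T_cell_3. Trbv29 was found in 10.4 and 8.55% of T_cell_1 and 4.37 and 3.89% of T_cell_3, whereas T_cell_2 differed between datasets, with 3.70% in Bonn and 8.75% in Hamburg. Of the Hamburg T_cell_2 cells with Trbv29, 15 also held Trav2, all of them in cortex. Trbv19 was found in 4.04 and 5.96% of T_cell_1, 4.69 and 9.22% of T_cell_2 and 11.7 and 9.41% of T_cell_3. These shares describe the clusters without a test.

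Many T cells held UMIs of more than 1 beta segment. Of Trbv-positive T cells, 29.7% in Bonn (440 of 1481) and 31.7% in Hamburg (593 of 1870) held at least 2 Trbv genes, and 11.6% and 13% of those with 2 or more UMIs of some segment held 2 or more segments at that level. Among cells with exactly 2, the segments were direct neighbors on the chromosome in 76 of 380 cells (20%) in Bonn and 105 of 491 (21.4%) in Hamburg. Trbv12-2 with Trbv13-2, whose start sites lie close together on the same strand, was the most frequent pair with 47 and 64 of these cells. Trbv12-2 was found in 71 of 414 Trbv13-2-positive T cells in Bonn (17.1%, against 6.28% of the other Trbv-positive cells) and in 114 of 463 in Hamburg (24.6% against 10.2%), and the share was higher with Trbv13-2 in 6 of 6 libraries. In cells with both, Trbv13-2 held a mean of 6.13 and 4.57 UMIs and Trbv12-2 1.38 and 1.63, so the upstream segment was the weaker one. For Trbv13-2 with its downstream neighbor Trbv13-3 the shares were 6.28 against 4.97% in Bonn and 10.4 against 5.90% in Hamburg, and there Trbv13-2, now the upstream segment, held 1.5 and 1.68 UMIs against 6.38 and 4.61 of Trbv13-3. In Bonn OM that order was turned, with 3.45 against 6.41%. Not all neighbors were found together more often: Trbv12-1 was found in 3.39% of Trbv13-1-positive cells against 6.31% of the others in Bonn (4 of 118 cells) and in 2.4 against 5.56% in Hamburg (3 of 125 cells), with 3.65 UMIs of Trbv12-1 and 3.60 of Trbv13-1 in the Hamburg cells with both. The source of such double detection was not tested.

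Alpha usage was spread over more segments and was less alike between datasets. In Bonn the leading segments were Trav3-3 (8.03% of Trav-positive T cells), Trav13-1 (6.82%), Trav14-2 and Trav16n (5.61% each) and Trav12-2 (5.17%), and in Hamburg Trav7-4 (11.3%), Trav6-7-dv9 and Trav9-2 (4.6% each), Trav12-1 (4.15%) and Trav13-1 (4.08%). Only 4 of the 10 most used segments were shared, and the effective number of segments was 49.0 in Bonn and 55.4 in Hamburg. Trav7-4 was found in 10.8, 10.9 and 12.4% of Trav-positive cells of Hamburg cortex, OM and IM, against 2.53, 0 and 4.64% in Bonn, so that the datasets did not overlap. Trav3-3 was the reverse, with 7.58, 8.70 and 9.93% in Bonn and 3.27, 4.64 and 2.92% in Hamburg. Trav14-2 likewise was found in 5.20 to 8.70% in Bonn and 1.63 to 2.98% in Hamburg. Of Trav-positive T cells, 24.4% in Bonn and 26.5% in Hamburg held at least 2 Trav genes.

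Segments of innate-like alpha-beta T cells were detected in few T cells. For Trav11 this cannot show that the segment was rare. Only 0.394% of its stretches were unique, and how reads shared with Trav11d were counted is not given in the sources used here. Trav11 was found in 7 T cells in Bonn and 16 in Hamburg, of which 6 and 14 lay in T_cell_1. Of these cells 5 of 7 and 7 of 16 held Trbv13-2, against 25.6 and 22.0% of the other T cells. Il4, a cytokine that NKT cells can release at once, was the gene most like Trav11 among genes that passed the same floor on positive cells. It was found in 52.2% of the 23 Trav11-positive T cells against 7.35% of the others. Next came Pom121 (43.5% against 12.5%), Gyg (47.8% against 14.1%), Gps1 (43.5% against 14.5%) and Kctd12 (52.2% against 18.2%). Traj18, the J segment of the NKT alpha chain, was found in 7 T cells in Bonn and 32 in Hamburg. In Hamburg 17 of these 32 cells (53.1%) held Trbv13-2, against 21.7% of the others, and 3 held Trav11. In Bonn 2 of 7 held Trbv13-2 (28.6%, against 25.8%) and 0 held Trav11. Trav1, the alpha segment of mucosal-associated invariant T cells, was found in 15 and 24 T cells, and at the highest share in T_cell_4, with 4 of 41 cells in Bonn and 5 of 74 in Hamburg. Zbtb16, the transcription factor of innate-like T cells, was found in 5 of 5 of these T_cell_4 cells in Hamburg and 2 of 4 in Bonn, against 46.4 and 32.4% of the other T_cell_4 cells. Over T_cell_1 to T_cell_4 it was found in 5 of 24 Trav1-positive cells in Hamburg and 2 of 15 in Bonn, so none of those outside T_cell_4, the larger number, held it. These few cells were not compared between compartments.

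Some alpha and beta segments were found together in many cells of 1 dataset and few of the other. These pairs were chosen after their values were seen, from the 5 pairs held by the most T cells of each dataset, and are a description without a test. Trav7-4 with Trbv4 was found together in 89 of 2092 T cells in Hamburg (4.25%, exact interval 3.43 to 5.21%), namely 44 in cortex, 18 in OM and 27 in IM, or 4.41, 3.95 and 4.23% of T cells. It was found in 0 of 1605 T cells in Bonn, where the exact interval reached 0.230%, although 25 Bonn T cells held Trav7-4 and 62 held Trbv4. In Hamburg 59.3% of Trav7-4-positive T cells held Trbv4, against 3.24% of the others, and 87 of the 89 cells lay in T_cell_1. Among these 87 cells and the 802 other Hamburg cells of T_cell_1, the helper coreceptor Cd4 was found in 67.8% and 37.4%, the chemokine gene Ccl5 in 92.0% and 62.5%, the granzyme gene Gzmk in 19.5% and 9.23%, Zbtb16 in 0 and 12.5% and the cytokine gene Ifng in 63.2% and 67.2%, at median depths of 2705 and 3146 UMIs. Trbv1 was also found in 19 of the 89 cells (21.3%, against 5.61% of the T cells without Trav7-4).

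In Bonn, Trav8-1 with Trbv1 was the leading pair, with 30 T cells (1.87%, exact interval 1.26 to 2.66%) spread over cortex (19), OM (5) and IM (6), against 1 in Hamburg. It took up 76.9% of the Trav8-1-positive T cells, and 25 of the 30 lay in T_cell_2. A second beta segment, Trbv26, was found in 14 of the 30 cells, against 2.11% of the T cells without Trav8-1. Among the 25 cells and the 380 other Bonn cells of T_cell_2, Cd8a was found in 88% and 77.6%, and Cd8b1, the CD8 beta chain, in 20% and 77.6%. Trav14-2 and Trav3-3 were found together in 23 Bonn T cells, of which 18 held Trbv3 (78.3%, against 9.40% of the T cells without Trav14-2), so that 2 alpha segments and 1 beta segment went together. Trav12-2 with Trbv13-1 was found in 21 Bonn T cells (17 in cortex, 4 in OM and 0 in IM), all in T_cell_2, against 5 in Hamburg. In Hamburg, Trav9-2 with Trbv26 was found in 19 T cells and Trav12-1 with Trbv31 in 18, against 2 and 3 in Bonn. The other pairs among the 5 of Bonn were Trav3-3 with Trbv3 (25 cells in Bonn, 5 in Hamburg) and Trav16n with Trbv13-2 (18 and 13). Those of Hamburg were Trav7-4 with Trbv1 (3 and 26) and with Trbv12-2 (2 and 22). In Hamburg Trbv12-2 was in 14.7% of Trav7-4-positive T cells against 12.2% of the others, so this pair was near the background. Trbv1 was in 17.3% against 5.61%, and 19 of these 26 cells also held Trbv4. Trav16n with Trbv13-2 was thus found in both datasets, in 35.3 and 33.3% of Trav16n-positive T cells, against 25.5 and 21.9% of the others. Without the joined sequence, cells with the same pair cannot be told from a clone or from separate cells that used the same segments.

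**Figure D4:**
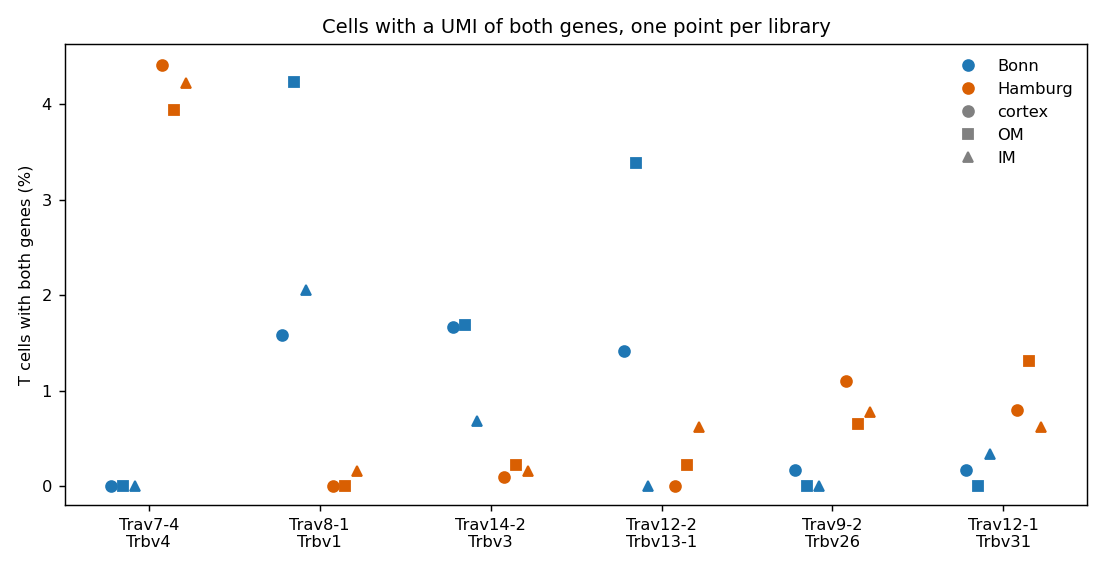
Share (%) of T cells with a UMI of both genes of 6 pairs, 1 point per library, Bonn in blue and Hamburg in orange, with circles for cortex, squares for OM and triangles for IM. Trav7-4 with Trbv4 lies between 3.95 and 4.41% in the Hamburg libraries and at 0 in the Bonn libraries, and the other pairs lie below 4.3% and mostly in 1 dataset.

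To ask whether V gene levels differed between compartments, UMIs of T_cell_1 to T_cell_4 were summed per library and fitted in edgeR (quasi-likelihood, datasets as blocks), with Benjamini-Hochberg adjustment over 8522 genes. Of the 114 genes 41 passed the filter on low counts, and their test rests on the Bonn and Hamburg libraries, as Aachen held no count. In a sum over cells, fewer cells of a segment and less RNA per cell cannot be told apart. Of all genes tested, 0.0117% were called between the medulla (mean of OM and IM) and cortex, 0.0235% between OM and cortex, 0.0235% between IM and cortex and 0% between OM and IM. Among the 41 members, 0, 1, 0 and 0 were called. At an unadjusted p under 0.05 in edgeR there were 10, 6, 9 and 11 members of 41, beside 503, 496, 360 and 296 of all 8522 genes. The share was thus higher among the members in each comparison. Whether p-values of genes at 0 in Aachen can be set beside those of other genes was not tested. DESeq2 called 0 members in each comparison. The median log2 fold change of the 41 members was 0.07 between medulla and cortex, against 0.00 over all genes, and 21 of 41 lay above 0.

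The gene called was Trbv29, a beta segment that is found in conventional and NKT cells. Its summed level was 92.8, 43.7 and 111 CPM (counts scaled by TMM to a common library size) in Bonn cortex, OM and IM and 116, 40.9 and 98.2 CPM in Hamburg. OM was lowest in both datasets, and the cortex and OM libraries did not overlap. The log2 fold change between OM and cortex was -1.34 ± 0.19 (SE, adjusted p = 0.0232 in edgeR, lower in 2 of 2 datasets), that between OM and IM -1.33 (adjusted p = 0.0810) and that between IM and cortex -0.01. The value rests on 4 and 19 OM cells with the segment, against 89 and 88 in cortex, or 3.74 and 4.79% of Trbv-positive cells against 7.97 and 9.92%. Of the 88 Hamburg cortex cells, 15 also held Trav2, all in T_cell_2, and no other library had such a cell. Without these 15 cells the Hamburg cortex share was 8.37%. In T_cell_1 the shares were 4.17 and 3.01% in OM against 12.2 and 10.4% in cortex, whereas in T_cell_3 they were 4.76 and 4.1% against 3.56 and 3.85%, and the fold change within T_cell_3 alone was above 0 (0.71). The call was lost with DESeq2 (adjusted p = 0.315), without Hamburg (1.0), without the block (1.0) and without cells that held B cell or myeloid markers (0.126). Nor was it made in T_cell_2 alone or T_cell_3 alone. In edgeR it held in T_cell_1 alone (-2.47, adjusted p = 0.0302), with Malat+_T_cell added (0.0185) and with Hamburg values rounded up (0.0224). It also held without cells with both Trav2 and Trbv29 (0.0291) and with Ighm and Lyz2 dropped from the markers (0.00619). These last settings were chosen after seeing the data. The full marker list took out 24.7% of Bonn T cells, the shorter 5.05%.

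None of the other segments with the smallest p between medulla and cortex passed. Trav9-2 was at 11.6, 0 and 4.94 CPM in Bonn cortex, OM and IM and 22.4, 10.2 and 14.7 in Hamburg (log2 fold change -1.12 ± 0.33 SE, adjusted p = 0.536), with cortex highest in both datasets. Trbv12-2 was at 45.1, 29.8 and 89.0 CPM and at 70.8, 101 and 116 CPM (0.55 ± 0.17 SE, adjusted p = 0.605), with IM highest in both. Trbv16 was at 63.8, 119 and 102.2 and at 76.7, 89.9 and 80.5 CPM (0.44 ± 0.15 SE, adjusted p = 0.673), with OM highest in both. Trgv2 was at 105, 115 and 62.6 and at 57.1, 40.9 and 36.6 CPM (-0.43 ± 0.15 SE, adjusted p = 0.673), with IM lowest in both. Trdv4 was at 24.1, 17.9 and 79.1 CPM in Bonn and 38.0, 93.7 and 8.31 in Hamburg, so that the datasets had opposite orders of OM and IM. Trbv13-2, the most used segment, was at 283, 330 and 205 and at 222, 192 and 178 CPM (-0.19 ± 0.12 SE, adjusted p = 0.961).

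**Figure D5:**
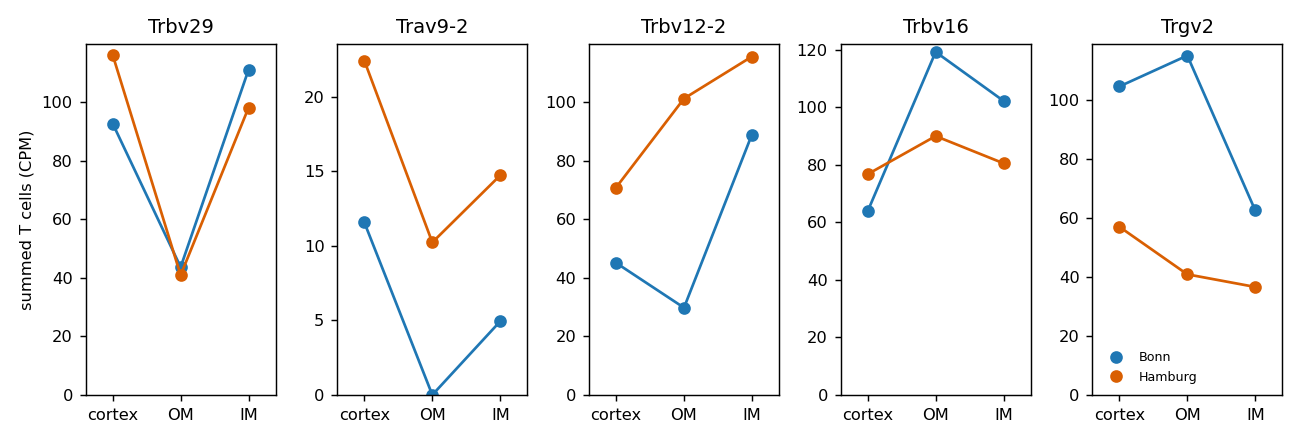
Summed level (CPM scaled by TMM, linear axis) of Trbv29, Trav9-2, Trbv12-2, Trbv16 and Trgv2 in T cells of cortex, OM and IM, 1 point per library with lines joining the 3 libraries of a dataset, Bonn in blue and Hamburg in orange. Trbv29 lies lowest in OM in both datasets, at 43.7 and 40.9 CPM, whereas the other genes did not pass the test.

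The partners of the V genes in the receptor and its signal path did not differ between compartments beyond the threshold either. Of 32 genes of the receptor complex and its signaling that were tested, 0 were called between medulla and cortex by edgeR and 0 by DESeq2. Beside 503 of all 8522 genes, 4 of the 32 had an unadjusted p under 0.05 in edgeR. These were the gamma constant gene Tcrg-C4 (-1.05 ± 0.22 SE, adjusted p = 0.223, edgeR), the lipid kinase gene Dgkz (0.28, adjusted p = 0.802, edgeR), the costimulator Cd28 (-0.28, adjusted p = 0.802, edgeR) and the beta constant gene Trbc2 (0.30, adjusted p = 0.815, edgeR). Tcrg-C4 was at 31.4, 23.8 and 15.7 CPM in Bonn cortex, OM and IM and 29.8, 10.8 and 14.0 CPM in Hamburg, highest in cortex in both. The alpha constant gene Trac was level, at 232, 266 and 245 CPM and 263, 238 and 248 CPM (log2 fold change 0.00 ± 0.11 SE).

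Between datasets, the library ranges of 15 of the 41 members (36.6%) did not overlap, 5 higher and 10 lower in Hamburg, against 37.3% of the 8276 genes with a count in either dataset, so the share among V genes was near that over all genes. Mice, facility and processing differ together between datasets and cannot be told apart. The members farthest apart were all alpha segments. Trav7-4 was at 0 to 15.7 CPM in the Bonn libraries and 48.7 to 58.9 in Hamburg, and Trav12-1 at 0 to 7.41 and 14.0 to 23.2 CPM. Trav14-2 was at 23.8 to 31.3 CPM in Bonn and 5.61 to 9.69 in Hamburg, Trav12-3 at 13.9 to 15.4 and 3.77 to 6.12, and Trav8-1 at 10.0 to 17.9 and 2.55 to 5.67. Of these 5 segments, 4 belong to the pairs above that were found mostly in 1 dataset, namely Trav7-4, Trav12-1, Trav14-2 and Trav8-1. Both lists were drawn from counts of the same cells, and a segment abundant in 1 dataset can enter both. The overlap is therefore no separate support.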

How the data were processed

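CD45+ kidney cells were profiled by the authors with the 10x Chromium gene expression kit, whose read end (5′ or 3′) is not given in the sources used here, and sequenced on an Illumina NovaSeq. Per the paper and the labels, the authors used Cell Ranger with mm10, removed cells outside 200 to 4000 genes or above 20% mitochondrial reads, and clustered the rest in Seurat 4.0 (R 4.1). The deposited values are expected counts of UMIs, not scaled: whole in Aachen and Bonn, and nearly always just below whole in Hamburg (0.118% exactly whole). A gene counted as detected at any value above 0.

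Here, cells of 1 compartment and dataset formed 1 library. Within a dataset 29 barcodes were shared between libraries, 16 in Aachen, 13 in Bonn and 0 in Hamburg. Barcodes carry 6 suffixes in Aachen and 3 in Bonn, and Hamburg carries 1 for all compartments. Whether the compartments of a dataset were separate runs cannot be told from these. Counts of T_cell_1 to T_cell_4 were summed, rounded, filtered with filterByExpr, scaled by TMM and tested with edgeR 4.0.16 (R 4.3.3), dataset as block, adjusted by Benjamini-Hochberg at 0.05. DESeq2 1.42.0 was an alternative. The 9 same-dataset pairs of libraries deviated together (correlation 0.783 to 0.915), which is where the block comes from. Shares used Python 3.11.15, pandas 2.3.3 and scipy 1.17.1, with exact 95% binomial intervals, which cover counting error only. No doublet caller was run, and cells with 2 or more UMIs of B cell or myeloid markers were left out as an alternative. The fit was tested on simulated data. V segments were placed and read from GENCODE M21 (GRCm38), the same build as mm10. Genes named were the 10 most used Trav and Trbv, all Trgv, Trdv and Tcrg-V genes, innate-like segments, constant genes, those with the smallest p between compartments, and those farthest apart between datasets. The members and lists were chosen with earlier results of these data known.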

Additional observations from a re-analysis of the deposited data

Results flagged for a closer look

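In 5 of the 24 class shares and named usages checked, both medullary compartments moved one way from cortex in Bonn and the opposite way in Hamburg. The difference between the datasets was not tested, and the Bonn OM library held 118 T cells. The share of T cells with a Trav gene was 59.5, 39.0 and 51.9% in Bonn cortex, OM and IM, a mean change from cortex to medulla of -14.1 percentage points, and 61.4, 66.2 and 64.3% in Hamburg. Usage of Trbv3 among Trbv-positive T cells was 12.6, 8.41 and 7.75% in Bonn, a change of -4.55 points, and 8.34, 11.1 and 10.1% in Hamburg. Usage of Trav6-7-dv9 among Trav-positive T cells was 3.93, 4.35 and 5.96% in Bonn, a change of 1.22 points, and 5.56, 2.65 and 4.62% in Hamburg. Usage of Trav16n was 5.34, 8.70 and 5.96% in Bonn, a change of 1.99 points, and 3.43, 2.98 and 2.19% in Hamburg. Usage of Trav7-5 was 3.09, 6.52 and 5.96% in Bonn, a change of 3.15 points, and 4.25, 3.97 and 1.70% in Hamburg.

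The cluster that the authors named Malat+_T_cell was outside the comparisons, and V genes were detected in it as well. At least 1 V gene was found in 81.0% of its 58 cells in Bonn and 69.7% of its 333 cells in Hamburg, at median depths of 1556 and 948 UMIs, against 1.17 and 7.05% of B_cell_1. Trbv genes were found in 70.7 and 48.3% of its cells and Trav genes in 41.4 and 40.5%.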

How the results depend on the processing

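No member was called between medulla and cortex, 1 between OM and cortex, 0 between IM and cortex and 0 between OM and IM. Without the filter on low counts they were 6, 4, 4 and 4, while all genes called rose from 1, 2, 2 and 0 to 107, 86, 67 and 45 of 17114 tested. Leaving out 1 dataset at a time, they ranged from 0 to 1, 0 to 2, 0 to 1 and 0 to 1. All genes called were 9, 4, 9 and 5 of 9688 without Aachen, where 76 members were tested. They were 37, 34, 16 and 6 of 8963 without Bonn, where 44 members were tested. Without Aachen Trbv29 was called between OM and cortex (-1.35, adjusted p = 0.0110, edgeR) and between OM and IM. Without Bonn Trbv29 was called between medulla and cortex (-0.87) and between OM and cortex, and Trdv4 between OM and cortex (1.29), IM and cortex (-2.17) and OM and IM (3.47). Without Hamburg 0 members and 0 of all 7447 genes were called. Without Bonn or Hamburg 1 dataset is left with V gene counts, and the calls then rest on the spread of the other genes. Without the replicate block, which pairs the libraries of a dataset, 0 members were called between OM and cortex, and it changed no other of these 4 counts. DESeq2 gave 0 between OM and cortex, leaving out cells with B cell or myeloid markers gave 0 (24.7% of Bonn and 9.94% of Hamburg T cells), and T_cell_2 alone and T_cell_3 alone gave 0 each. T_cell_2 alone gave 1 between IM and cortex (Trbv16, 1.38, adjusted p = 0.0131, edgeR), the only gene called of 5267 tested. With Ighm and Lyz2 dropped from the marker list, and without the cells that held both Trav2 and Trbv29, both chosen after seeing the data, 1 member (Trbv29) was called between OM and IM. It was the only gene called there, of 8322 and 8527 tested, respectively. Of the receptor complex genes, 1 was called without the filter (Tcrg-C4) and 1 without Bonn (Tcrg-C1), with a range of 0 to 1 over the datasets left out.

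Directions turned within T_cell_3 alone, where the log2 fold change between medulla and cortex was 0.80 for Trbv29, -0.36 for Trbv12-2 and -0.037 for Trbv16, and that between OM and cortex was 0.71 for Trbv29. The adjusted p of Trbv29 between OM and cortex ranged from 2.11e-09 (no filter) to 1.0 (no block, without Hamburg, T_cell_3 alone). T_cell_4 alone was not fitted, as its smallest library held 2 cells. Of the 20 usages named, 0 moved beyond the spread between libraries when either dataset was left out. That spread includes the difference between the datasets, so this cannot show that usage was stable. Trav7-4, at 2.75% in Bonn and 11.3% in Hamburg, did not count as moved. Without cells with B cell or myeloid markers 0 of the 20 moved. When given as a share of UMIs 6 moved, and 5 moved when cells were thinned to 500 UMIs. The cause of these changes was not tested.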
